A study of Mus musculus with 12 samples.

Results

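Smooth muscle contractile genes are described here as 42 named genes measured in whole mouse uteri across the estrous cycle. The names were listed for their known roles in smooth muscle, with earlier results of these data known when the choice was made. Transcripts were mapped to 35896 genes in all, and all 42 names were found. Of these, 40 passed the filter on low counts and were tested. Sgcd (a sarcoglycan of the dystrophin complex) and Casq2 (a calcium-binding protein of the sarcoplasmic reticulum) held 11 and 42 estimated counts over the 12 libraries together and were not tested. By role, 12 of the genes encode contractile filament proteins, 14 anchor filaments to the membrane and matrix, 6 handle calcium and excitability, 8 control myosin through kinases, phosphatases and cyclic nucleotides, and 2 are transcription factors.

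The animals were wild-type Swiss Webster females, an outbred stock, 8 to 12 weeks old, and no treatment or engineered allele was named for any of them. There were 3 uteri in each of the 4 stages of the cycle: proestrus, estrus, metestrus and diestrus. RNA came from the whole organ, so that myometrium, vessel walls, stroma, epithelium and immune cells were read together, and fewer cells of a type cannot be told apart from less RNA per cell. How stages were assigned and when uteri were collected was not given in the sources used here.

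Smooth muscle shortens when calcium enters through voltage-gated channels or leaves internal stores, binds calmodulin and switches on myosin light chain kinase. The phosphorylated light chain lets smooth muscle myosin pull on actin, and myosin phosphatase reverses the step. Cyclic GMP and its kinase favour relaxation. Dense bodies and dense plaques, built from proteins such as actinin, filamin and vinculin, carry the force to the membrane. The dystrophin complex also ties the actin cytoskeleton to the membrane. Many of these genes are switched on by serum response factor with its partner myocardin at a short DNA sequence called the CArG box. In the uterus the outer muscle layers contract spontaneously, and ovarian steroids are known to alter that activity.

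Libraries held 1652841 to 2200563 estimated counts each. Values are given as CPM, that is counts scaled to a common library size. A gene with no count may still be present at up to 3 counts, worth 1.37 to 1.89 CPM. The 42 genes took between 1.32% and 2.10% of the counts of a library. Acta2, smooth muscle alpha actin, was present in every library at 1991 to 3833 CPM. Markers of the other cell types expected in a uterus were also found in every library, and their levels are given after the results on the genes themselves.

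Estrus stood out. The stage with the highest mean was estrus for 21 of the 40 tested genes, against 32.9% of all genes tested. The lowest mean lay in proestrus for 16 and in metestrus for 12, against 27.0% and 14.7% of all genes tested. Differences over the 4 stages passed the test (edgeR's quasi-likelihood F test, adjusted p under 0.05) for 16 of the 40, that is for Myh11, Actg2, Myl9, Tagln, Smtn, Lmod1, Synpo2, Vcl, Actn1, Pgm5, Pdlim3, Pdlim7, Dmd, Kcnmb1, Prkg1 and Pde5a. The same test called 23.2% of all 12052 genes. Not all genes of the apparatus were called: in the fit on all libraries Acta2, Myl6, Tpm1, Cnn1, Cald1 and Mylk, among the best known, passed no test in any comparison.

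Libraries of a stage were not alike. In proestrus replicates 1 and 2, 7 and 8 of the 40 genes lay above their own median over the 12 libraries, and in proestrus replicate 3 there were 26. In estrus replicates 3, 4 and 5 the numbers were 34, 23 and 27. In metestrus replicates 5, 6 and 7 they were 18, 26 and 17, and in diestrus replicates 3, 4 and 5 they were 21, 14 and 19. Estrus replicate 3 held the highest value of the 12 for 18 genes, and proestrus replicate 2 the lowest for 10. The F test called 14 genes without proestrus replicate 3, and 7 without proestrus replicate 2, without estrus replicate 3 or without estrus replicate 4. Without proestrus replicate 1, estrus replicate 5 or diestrus replicate 4 it called 9, 8 and 9. Here and below, the share of all genes called in such a fit is not given. The counts given here therefore do not tell a general loss of calls with 1 library fewer from one in these genes. The calls of Myh11, Tagln, Pdlim3, Dmd and Pde5a held in each of the 12 fits that left out 1 library, and each of the other 11 was lost in 2 to 9 of them. With library totals in place of TMM factors the calls of Smtn, Vcl, Pgm5 and Pdlim7 in the F test were lost (adjusted p = 0.0568, 0.0537, 0.12 and 0.062).

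**Figure D1:**
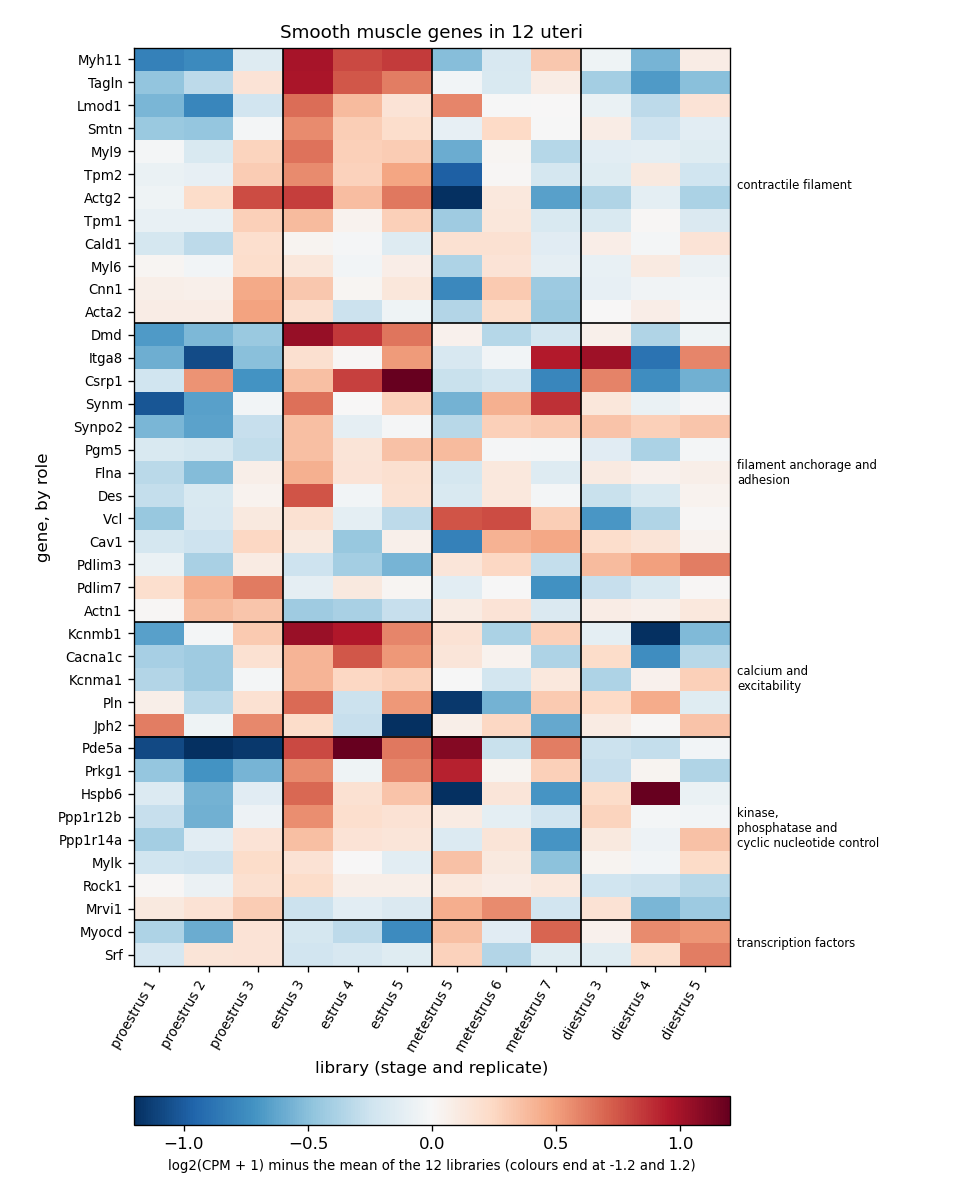
Each row is one of the 40 tested genes, grouped by role, each column 1 of the 12 libraries, and the colour is log2(CPM + 1) minus the mean of that gene over the libraries. Estrus columns are mostly red in the filament block and the first proestrus columns mostly blue, with 34 of 40 genes above their median in estrus replicate 3 and 7 in proestrus replicate 1.

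The sequence before the RefSeq start is shown for 4 genes that hold a full or imperfect CArG box there. In the fit on all libraries Dmd and Myl9 differed between stages, and Acta2 and Srf passed no test. Whether the boxes bear on these courses was not tested. The 250 bases upstream of the start are given 5′ to 3′ on the strand of the gene, from RefSeq on build GRCm38.p6, with capitals on a CArG box (a pair of C, 6 letters that are each A or T, and a pair of G). In Acta2 the capitals mark 2 imperfect boxes, in which 1 of the inner letters is neither A nor T. Acta2 lies on the minus strand (chr19:34255374-34255623), Myl9 on the plus strand (chr2:156775214-156775463), Dmd on the plus strand (chrX:82948620-82948869) and Srf on the minus strand (chr17:46556163-46556412).
Acta2: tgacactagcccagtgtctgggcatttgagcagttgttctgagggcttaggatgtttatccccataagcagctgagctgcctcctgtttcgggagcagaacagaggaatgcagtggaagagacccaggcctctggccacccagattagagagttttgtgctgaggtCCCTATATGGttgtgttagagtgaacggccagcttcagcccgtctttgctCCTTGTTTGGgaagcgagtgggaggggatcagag
Myl9: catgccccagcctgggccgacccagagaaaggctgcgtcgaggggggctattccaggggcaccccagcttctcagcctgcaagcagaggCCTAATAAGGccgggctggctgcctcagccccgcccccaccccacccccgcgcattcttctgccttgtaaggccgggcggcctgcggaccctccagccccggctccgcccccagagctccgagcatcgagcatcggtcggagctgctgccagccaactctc
Dmd: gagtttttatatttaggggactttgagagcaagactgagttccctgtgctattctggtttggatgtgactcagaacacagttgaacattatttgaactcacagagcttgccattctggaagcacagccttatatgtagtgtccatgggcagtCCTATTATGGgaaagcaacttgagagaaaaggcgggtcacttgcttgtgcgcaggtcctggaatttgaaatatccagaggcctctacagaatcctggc
Srf: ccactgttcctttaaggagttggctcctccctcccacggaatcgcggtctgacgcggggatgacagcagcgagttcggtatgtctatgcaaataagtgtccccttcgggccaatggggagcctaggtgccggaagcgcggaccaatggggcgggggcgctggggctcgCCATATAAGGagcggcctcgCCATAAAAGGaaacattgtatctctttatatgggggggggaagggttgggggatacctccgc
Counted back from the RefSeq start, the first base of the box lies at -161 in Myl9 and -98 in Dmd, at -82 and -62 in Srf, and at -84 and -34 for the imperfect boxes of Acta2. The Acta2 transcript that held 100.0% of its counts begins at position 34255590 in the annotation used for the counts, within the window shown. Both Acta2 boxes therefore lie inside the span of that transcript. Myl9 also holds an imperfect box, at -99, which is not in capitals. A second RefSeq start of Dmd, on the same strand further into the gene, had no box in its window.

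Of the 42 genes, 37 were matched by symbol in the RefSeq promoter table, with 49 windows that run from 250 bases before to 50 bases after a start. A full CArG box was found in 5 of them (Dmd, Myl6, Myl9, Srf and Vcl), which is 13.5% of the matched genes, against 1.81% of all 27025 genes of the table. Counted by window, 10.2% of the genes' windows and 1.63% of all 32851 windows held one. An imperfect box was found in 18.9% of the matched genes and in 9.69% of all genes. CATTCC, the core of the muscle MCAT element, was found on either strand in 32.4% of the matched genes and in 16.6% of all. Of the 5 genes with a full CArG box, Dmd and Myl9 differed between pairs of stages, Vcl passed only the test over the 4 stages, and Myl6 and Srf passed none. Actg2, Myh11, Myocd, Rock1 and Tagln were not matched. These matches of letters describe the windows and are not evidence of binding.

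Among contractile filament genes, 4 of 12 rose in estrus against proestrus, Myh11, Tagln, Smtn and Lmod1, and none fell. Of all 40 genes, 12 were higher and 1 was lower in estrus than in proestrus. Over all genes this comparison called 17.1%, with 9.67% higher and 7.46% lower in estrus. The median log2 fold change was 0.41 over the 40 genes, 29 of them above 0, and 0.02 over all genes tested. In 18 of the 40 all 3 estrus values lay above all 3 proestrus values (20.9% of all genes), and in 3 (Actn1, Pdlim7 and Mrvi1) all lay below (18.0%).

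Myh11, the smooth muscle myosin heavy chain and the motor of contraction, showed the widest change of the filament genes. In order of replicate number, here and below, it measured 623, 644 and 987 CPM in proestrus, 2179, 1901 and 1959 in estrus, 770, 958 and 1375 in metestrus and 1061, 745 and 1167 in diestrus. All estrus values lay above the other 9. Estrus was 1.42 ± 0.24 (SE) above proestrus on the log2 scale (adjusted p = 0.002). Metestrus differed from estrus by a log2 change of -0.96 ± 0.24 (adjusted p = 0.0271), and diestrus by -1.02 ± 0.24 (adjusted p = 0.0074). The metestrus call was lost without estrus replicate 3, 4 or 5 or metestrus replicate 6, with an adjusted p of up to 0.0929.

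Tagln, the actin-binding protein transgelin, followed the same course. It measured 825, 919 and 1279 CPM in proestrus, 2260, 1922 and 1747 in estrus, 1118, 1006 and 1213 in metestrus, and 862, 712 and 807 in diestrus. Estrus again held the 3 highest libraries, and diestrus 2 of the 3 lowest. The log2 change from proestrus to estrus was 0.97 ± 0.17 (adjusted p = 0.00282), and that from estrus to diestrus was -1.32 ± 0.18 (adjusted p = 0.000226). The fall in metestrus, -0.83 ± 0.17 (adjusted p = 0.0127), was lost without metestrus replicate 6 (adjusted p = 0.0573). Of the transcript sequence at its 3′ end, 16.6% is shared with the opposite-strand gene Pcsk7, which lay at 10.1 to 26.4 CPM.

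Lmod1, leiomodin, a nucleator of actin filaments, measured 132, 112 and 165 CPM in proestrus against 309, 252 and 217 in estrus. Its metestrus values were 292, 193 and 195 and its diestrus values 183, 156 and 217, which overlapped those of estrus. The rise into estrus was 0.93 ± 0.21 on the log2 scale (adjusted p = 0.00906), and the later stages did not differ from estrus by the test. Smtn, smoothelin, a marker of fully contractile smooth muscle, rose from 152, 150 and 204 CPM in proestrus to 307, 255 and 240 in estrus. That change of 0.66 ± 0.16 (adjusted p = 0.0145) was lost without proestrus replicate 1 or 2 or estrus replicate 3, with an adjusted p of up to 0.0656. In metestrus Smtn lay at 194, 244 and 206 CPM and in diestrus at 221, 174 and 190.

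Actg2, Myl9 and Tpm2 passed no test in estrus against proestrus but fell after estrus. Actg2, the gamma actin typical of visceral and uterine muscle, measured 618, 743 and 1103 CPM in proestrus, 1138, 826 and 994 in estrus, 241, 699 and 407 in metestrus and 498, 588 and 493 in diestrus. All estrus values lay above all those of metestrus and diestrus, while proestrus overlapped estrus. The log2 change was -1.14 ± 0.31 in metestrus (adjusted p = 0.0406) and -0.91 ± 0.31 in diestrus (adjusted p = 0.0473). These calls were lost in 9 and 8 of the 12 fits that left out 1 library, at most with an adjusted p of 0.118 and 0.135, both without estrus replicate 3. With library totals in place of scaling factors the diestrus call was lost as well (adjusted p = 0.0532).

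Myl9, the regulatory light chain that the kinase phosphorylates, measured 953, 857 and 1170 CPM in proestrus, 1530, 1186 and 1203 in estrus, 644, 984 and 766 in metestrus and 888, 893 and 877 in diestrus. Every estrus value was above the other 9. It fell by 0.71 ± 0.18 in metestrus (adjusted p = 0.027) on the log2 scale. In diestrus it fell by 0.56 ± 0.17 (adjusted p = 0.0336). Tpm2, beta tropomyosin, fell only in metestrus among the comparisons tested (-0.79 ± 0.22, adjusted p = 0.0445), from 1325, 1082 and 1241 CPM in estrus to 450, 897 and 770. It lay at 841, 830 and 1104 CPM in proestrus and at 804, 966 and 757 in diestrus. That call was lost in 11 of the 12 fits without 1 library (adjusted p up to 0.121, without estrus replicate 3). For Myl9, 4 and 6 of the 12 fits lost the metestrus and the diestrus call, with an adjusted p of up to 0.0961 and 0.126, again without estrus replicate 3.

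Acta2 and Cnn1 passed no test in the fit on all libraries. Acta2 measured 2919, 2908 and 3833 CPM in proestrus, 3133, 2291 and 2633 in estrus, 2143, 3160 and 1991 in metestrus and 2741, 2894 and 2692 in diestrus. The stages overlapped throughout, and estrus differed from proestrus by -0.26 ± 0.19 on the log2 scale (adjusted p = 0.384). Cnn1, calponin, ranged from 406 to 957 CPM and differed by -0.04 ± 0.22 (adjusted p = 0.924). Myl6, the essential light chain, ranged from 1388 to 2075 CPM and differed by -0.01 ± 0.15 (adjusted p = 0.978). Of the 3′ end of Myl6, 60.1% is shared with pseudogenes, so that its value is uncertain. Tpm1, alpha tropomyosin, spanned 669 to 1172 CPM, and Cald1, caldesmon, 717 to 1027 CPM. Without metestrus replicate 6, Acta2 and Cnn1 were called lower in metestrus than in proestrus (adjusted p = 0.0426 and 0.0128). Without that library Cnn1 also passed the test over the 4 stages (0.0156) and fell by 0.74 on the log2 scale in metestrus against estrus (0.0344).

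The ratio of Myh11 to Acta2 within a library sets the separate courses of these 2 genes side by side. The pair was chosen after the values were seen, so the ratio is a description. It was 0.213, 0.221 and 0.258 in proestrus, 0.695, 0.83 and 0.744 in estrus, 0.359, 0.303 and 0.691 in metestrus and 0.387, 0.257 and 0.434 in diestrus. Proestrus replicate 3, which stood apart from the other proestrus libraries in the level of both genes, was close to them in this ratio. The ratio of Actg2 to Acta2 was 0.363, 0.361 and 0.378 in estrus, 0.212 to 0.288 in proestrus, 0.112 to 0.221 in metestrus and 0.182 to 0.203 in diestrus. Tagln to Cnn1 gave 2.59, 2.71 and 2.28 in estrus and 1.05 to 1.34 in proestrus and diestrus. Metestrus covered 1.16 to 2.75 for that pair and so overlapped both. Of 5 pairs computed, the other two were Pde5a to Prkg1, with the largest SD in estrus (5.02), and Dmd to Vcl, with the largest in diestrus (2.36).

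**Figure D2:**
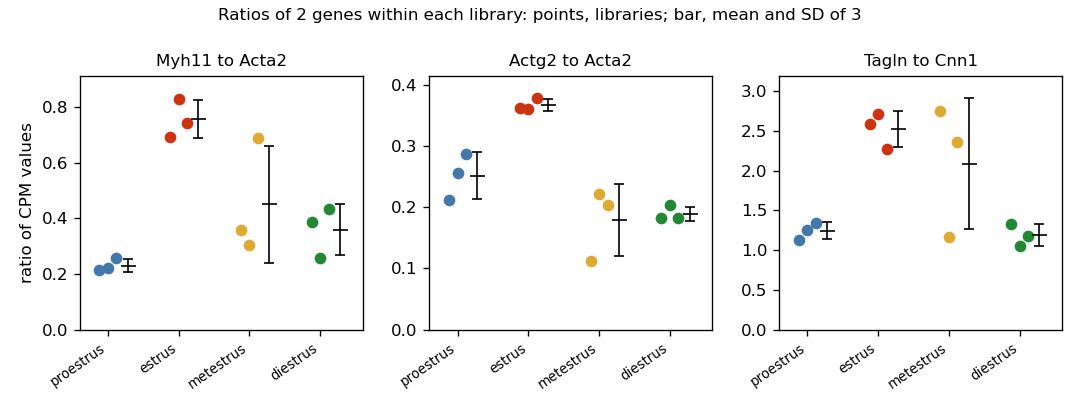
Each panel plots the ratio of the CPM values of 2 genes within each library (points), with the mean and SD of 3 libraries beside them (bar), by stage. The estrus points lie above all others for Myh11 to Acta2, where estrus reached 0.695 to 0.83, and for Actg2 to Acta2, and metestrus has the largest SD in each of these 3 panels.

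Among the 13 tested genes that anchor filaments, Dmd, Synpo2, Flna and Pgm5 rose in estrus against proestrus and Actn1 fell. Dmd encodes dystrophin, which ties the actin cytoskeleton to the membrane complex. It measured 54.2, 59.8 and 63.9 CPM in proestrus, 182, 159 and 137 in estrus, 90.8, 68.8 and 75.1 in metestrus and 91.7, 68.2 and 84.3 in diestrus. All 3 estrus values lay above the other 9, and all 3 proestrus values below the other 9. Estrus was 1.42 ± 0.16 above proestrus (log2, adjusted p = 0.000245), metestrus differed from estrus by -1.02 ± 0.16 (adjusted p = 0.0022), and diestrus by -0.97 ± 0.16 (adjusted p = 0.000872). These 3 calls held in each of the 12 fits without 1 library and under each other setting tried. Reads at the 3′ end cannot separate full-length dystrophin from its short isoforms, which share that end.

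Actn1, alpha actinin, the actin crosslinker of dense bodies and focal adhesions in many cell types, moved the other way. Its values were 260, 336 and 324 CPM in proestrus, 192, 196 and 213 in estrus, 276, 288 and 228 in metestrus and 274, 268 and 282 in diestrus. All 3 estrus values were below the other 9. The log2 change was -0.61 ± 0.14 from proestrus to estrus (adjusted p = 0.00884) and 0.45 ± 0.14 from estrus to diestrus (adjusted p = 0.0293). The second call was lost in 4 of the 12 fits, without estrus replicate 3 or 4 or diestrus replicate 3 or 5 (adjusted p up to 0.0855).

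Pdlim3, an actinin-binding LIM protein, was highest in diestrus, at 253, 274 and 298 CPM. It lay at 184, 148 and 209 CPM in proestrus, 164, 146 and 132 in estrus and 216, 231 and 159 in metestrus, so that each diestrus value exceeded all others. Diestrus was above estrus by 0.90 ± 0.17 on the log2 scale (adjusted p = 0.00213). Proestrus differed from diestrus by -0.61 ± 0.17 (adjusted p = 0.0374), a call lost in 7 of the 12 fits (adjusted p up to 0.17, without proestrus replicate 2). Pdlim7, a relative of Pdlim3, measured 212, 250 and 284 CPM in proestrus, 171, 200 and 187 in estrus, 169, 183 and 111 in metestrus and 152, 162 and 186 in diestrus. Proestrus was highest, and the fall to metestrus, -0.69 ± 0.18 (adjusted p = 0.0465), was lost in 10 of the 12 fits (adjusted p up to 0.169, without proestrus replicate 3), with DESeq2 size factors (0.0501) and with library totals (0.0627).

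Synpo2, synaptopodin 2, an actin-bundling protein of muscle, was lowest in proestrus and stayed up in diestrus. It measured 183, 172 and 222 CPM in proestrus, 345, 249 and 266 in estrus, 213, 329 and 335 in metestrus and 341, 328 and 339 in diestrus. Proestrus differed from diestrus by -0.80 ± 0.18 (log2, adjusted p = 0.0152), a call lost without proestrus replicate 1 or 2 (adjusted p up to 0.0817). The rise in estrus against proestrus, 0.57 ± 0.18 (adjusted p = 0.0475), was lost in 9 of the 12 fits, with an adjusted p of up to 0.18 without estrus replicate 3, and also with DESeq2 size factors (0.0517) and with no filter on low counts (0.0503).

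Flna, filamin A, an actin crosslinker, lay at 402, 350 and 527 CPM in proestrus and 677, 564 and 573 in estrus. In metestrus it was at 433, 548 and 451 CPM and in diestrus at 541, 521 and 526, all below the estrus values. The change into estrus was 0.50 ± 0.16 (log2, adjusted p = 0.0456). It was lost in 8 of the 12 fits (adjusted p up to 0.174, without proestrus replicate 2), with DESeq2 size factors (0.0512), with library totals (0.061) and with no filter (0.0764).

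Pgm5, aciculin, a partner of dystrophin and filamin, measured 144, 141 and 133 CPM in proestrus, 210, 182 and 209 in estrus, 213, 162 and 160 in metestrus and 148, 125 and 161 in diestrus. Its estrus values lay above those of proestrus and diestrus, and metestrus overlapped them. Estrus was above proestrus by 0.52 ± 0.15 (log2, adjusted p = 0.0255) and diestrus differed from estrus by -0.47 ± 0.14 (adjusted p = 0.0325). The first was lost in 6 of the 12 fits (adjusted p up to 0.0961, without proestrus replicate 3) and the second in 5 (up to 0.156, without diestrus replicate 4). Library totals (0.06 and 0.104) and no filter (0.0588 and 0.0929) ended both calls.

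Vcl, vinculin, of adhesion plaques, was highest in metestrus, at 29, 29.7 and 20.9 CPM. It measured 12, 14.6 and 18.3 CPM in proestrus, 19.2, 15.4 and 13.3 in estrus and 9.97, 12.9 and 17 in diestrus. The F test called it (adjusted p = 0.0345), no pair of stages did, and 8 of the 12 fits without 1 library lost it (adjusted p up to 0.104, without metestrus replicate 5). Of its 3′ end sequence, 50% is shared with Ap3m1 on the opposite strand, which lay at 76.9 to 141 CPM, so that the reads of these genes cannot be told apart where strand was not used. Des, desmin, of intermediate filaments, ranged from 488 to 613 CPM in proestrus and from 581 to 1008 in estrus, from 523 to 651 in metestrus and from 495 to 614 in diestrus. It passed no test (adjusted p = 0.166 over the 4 stages), and 40.9% of its 3′ end is shared with an antisense gene. Synm, synemin, Cav1, caveolin 1, Itga8, an integrin subunit, and Csrp1, a LIM protein, passed no test. Itga8 and Csrp1 were low, at 3.77 to 19.4 and 4.77 to 22.4 CPM. Sgcd did not exceed 2.47 CPM.

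**Figure D3:**
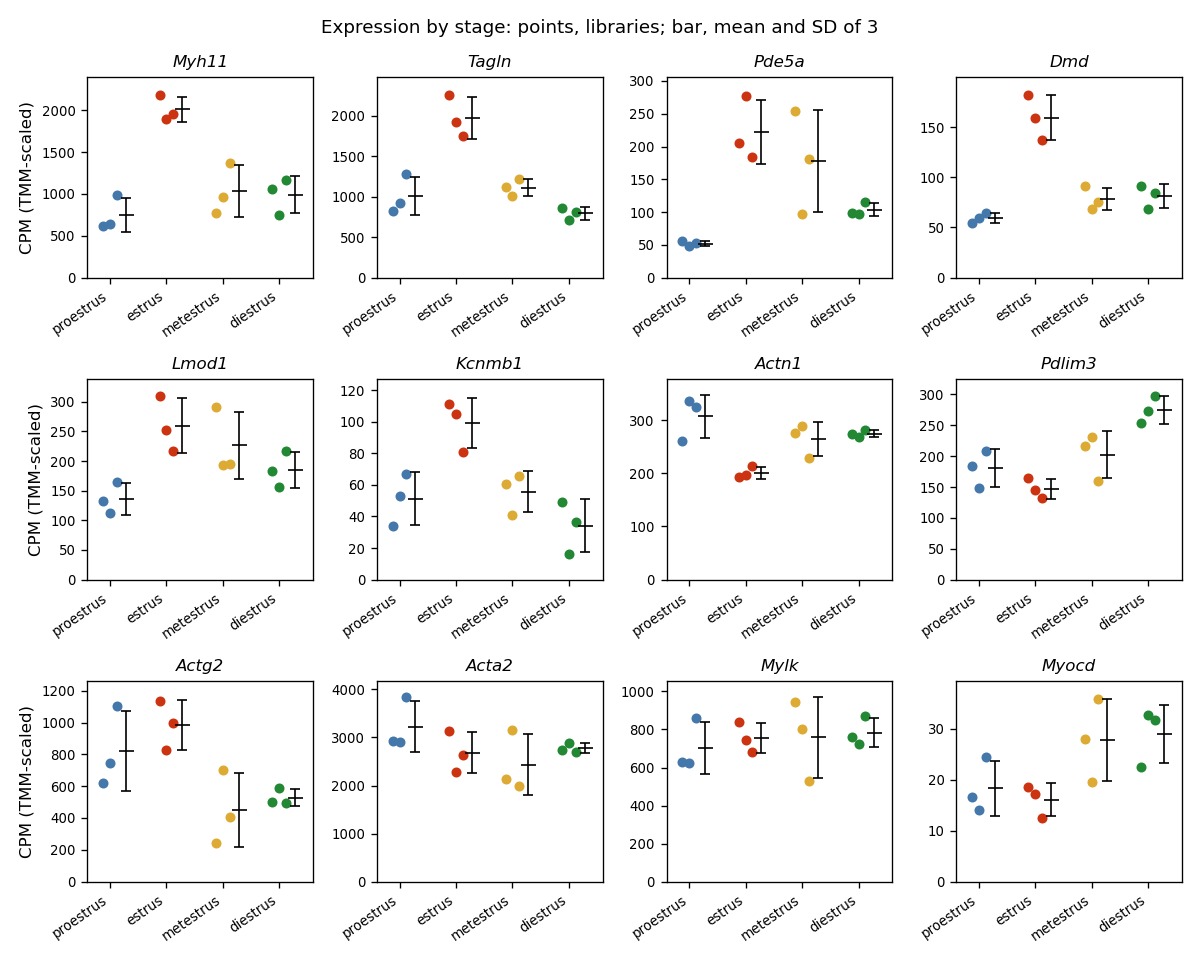
Each panel shows 1 gene, with CPM on a linear axis from 0, points for the 3 libraries of a stage and a bar for their mean and SD. Myh11, Tagln, Dmd and Kcnmb1 peak in estrus, where Dmd reached 137 to 182 CPM, Actn1 dips there, Pdlim3 is highest in diestrus, and Acta2 and Mylk overlap between stages.

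Of the 5 tested genes of calcium handling and excitability, Cacna1c rose in estrus against proestrus and Cacna1c and Kcnmb1 fell in diestrus against estrus. Kcnmb1 encodes the beta subunit that makes the large-conductance potassium channel of smooth muscle more sensitive to calcium. It measured 33.7, 52.8 and 67 CPM in proestrus, 111, 105 and 81.1 in estrus, 60.7, 41 and 65.6 in metestrus and 49.4, 16.3 and 36.8 in diestrus. Every estrus value exceeded the other 9. Diestrus differed from estrus by -1.53 ± 0.33 (log2, adjusted p = 0.00461), a call that held in each of the 12 fits. Estrus against proestrus, 0.94 ± 0.32, missed the threshold (adjusted p = 0.0557) but passed it in the DESeq2 test (0.0403). Of its 3′ end, 4.49% is shared with other transcripts.

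Kcnma1, the pore of the same channel, lay between 8.63 and 16.1 CPM in all libraries and passed no test, with 0.61 ± 0.26 in estrus against proestrus (log2, adjusted p = 0.127). Whether the pore and the beta subunit changed unequally was not tested. Cacna1c, the pore of the L-type calcium channel through which calcium enters, measured 28.5, 28 and 43.1 CPM in proestrus, 50.7, 64.1 and 55 in estrus, 42, 39.1 and 29.2 in metestrus and 44.4, 22.2 and 30 in diestrus. Estrus was above the other 9 values. Of the estimated counts of Cacna1c, 45.5% were assigned to a transcript annotated as processed, not as protein-coding, and 41.8% to the main protein-coding transcript. The summed value of Cacna1c rose by 0.76 ± 0.25 into estrus (adjusted p = 0.047) and fell by 0.81 ± 0.25 in diestrus (adjusted p = 0.0293). The rise was lost in 7 of the 12 fits (adjusted p up to 0.173, without estrus replicate 4), with DESeq2 size factors (0.0507), in the DESeq2 test (0.0514) and with library totals (0.0732). The fall was lost in 4, without estrus replicate 4 or 5 or diestrus replicate 4 or 5 (up to 0.13), and with library totals (0.0581). Pln, phospholamban, which restrains the calcium pump, was near the floor at 2.59 to 11.8 CPM, with 57.4% of its 3′ end shared, and Jph2, junctophilin, at 2.75 to 12.5 CPM. Casq2 did not exceed 3.55 CPM.

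Pde5a and Prkg1, which act on cyclic GMP signalling, rose in estrus against proestrus, as did Ppp1r12b, a targeting subunit of myosin phosphatase. Pde5a, the phosphodiesterase that degrades cyclic GMP, had the largest fold change of the 40 genes in that comparison. It measured 55.3, 48 and 52.3 CPM in proestrus, 205, 277 and 184 in estrus, 254, 97.8 and 181 in metestrus and 98.2, 96.9 and 115 in diestrus. All proestrus values were below the other 9, estrus and metestrus overlapped, and diestrus lay below estrus. Estrus was 2.10 ± 0.27 above proestrus (log2, adjusted p = 0.000466) and metestrus 1.78 ± 0.27 (adjusted p = 0.00631). Diestrus differed from estrus by -1.10 ± 0.26 (adjusted p = 0.00834), a call lost without estrus replicate 4 (0.051). Proestrus differed from diestrus by -0.99 ± 0.27 (adjusted p = 0.0375), which was lost in 7 of the 12 fits (up to 0.134, without proestrus replicate 2).

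Prkg1, the cyclic GMP-dependent kinase that promotes relaxation, measured 13.1, 10.8 and 12.2 CPM in proestrus, 27.8, 17.7 and 27.9 in estrus, 35.8, 18.9 and 22.7 in metestrus and 15, 18.8 and 14.1 in diestrus. Proestrus was again below the other 9 values. It was higher by 1.03 ± 0.28 in estrus (log2, adjusted p = 0.0231) and by 1.11 ± 0.28 in metestrus (adjusted p = 0.0402) than in proestrus. These were lost in 5 of the 12 fits (up to 0.0905, without estrus replicate 5) and in 9 (up to 0.144, without proestrus replicate 2), the second also with library totals (0.0584). Mrvi1, a substrate of that kinase at calcium stores, passed no test, with 103, 107 and 117 CPM in proestrus and 79.2, 86.4 and 83.8 in estrus.

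Ppp1r12b measured 55.3, 44.7 and 64.5 CPM in proestrus, 99.6, 77.2 and 76 in estrus, 72.1, 61.9 and 57.2 in metestrus and 80.8, 66.2 and 65.7 in diestrus. Estrus and diestrus overlapped. Its rise of 0.62 ± 0.17 into estrus (log2, adjusted p = 0.0255) was lost in 4 of the 12 fits, without proestrus replicate 1 or 2 or estrus replicate 3 or 4 (up to 0.103). Rock1, a kinase that restrains myosin phosphatase, measured 325, 307 and 368 CPM in proestrus, 375, 339 and 338 in estrus, 352, 342 and 352 in metestrus and 272, 269 and 255 in diestrus. Each diestrus value lay below the other 9, and the log2 change against estrus was -0.40 ± 0.12 (adjusted p = 0.0248). That call was lost in 6 of the 12 fits (up to 0.0876, without diestrus replicate 5), with library totals (0.0717) and with no filter (0.145). A block by replicate number, on estrus and diestrus alone, also ended it (0.0604).

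Mylk, the kinase that starts contraction, passed no test. It measured 628, 623 and 863 CPM in proestrus, 838, 745 and 680 in estrus, 946, 804 and 527 in metestrus and 758, 723 and 870 in diestrus, with an adjusted p of 0.924 over the 4 stages. The log2 difference between estrus and proestrus was 0.10 ± 0.20. Reads at the 3′ end do not separate the kinase from telokin, a short product of the same gene. Ppp1r14a, an inhibitor of myosin phosphatase, ranged from 89.4 to 188 CPM and Hspb6, a small heat shock protein linked to relaxation, from 3.11 to 21.8 CPM, and both passed no test.

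Neither transcription factor was called in estrus against proestrus. Myocd, myocardin, the cofactor that directs serum response factor to muscle genes, measured 16.5, 14 and 24.4 CPM in proestrus, 18.6, 17.2 and 12.4 in estrus, 28, 19.6 and 35.8 in metestrus and 22.4, 32.6 and 31.7 in diestrus. All estrus values were below those of metestrus and diestrus, while Myh11 and Tagln were at their highest. Diestrus was above estrus by 0.86 ± 0.28 (log2, adjusted p = 0.0396), a call lost in 5 of the 12 fits (up to 0.149, without estrus replicate 5). Srf, serum response factor, lay between 5.05 and 10.8 CPM in all libraries and passed no test.

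In the comparison of diestrus with estrus 13 genes were called, 10 lower and 3 higher (Actn1, Pdlim3 and Myocd) in diestrus. This comparison called 22.8% of all genes, 13.0% lower and 9.72% higher. The median log2 change was -0.25 over the 40 genes, with 28 below 0, and 0 over all genes. It shares the estrus libraries with the comparison of estrus with proestrus, so that a gene high in estrus tends to move in opposite directions in both. In 7 genes (Myh11, Myl9, Tagln, Flna, Dmd, Kcnmb1 and Cacna1c) all estrus values lay above the other 9, against 7.14% of all genes. In 3 (Dmd, Prkg1 and Pde5a) all proestrus values lay below the other 9, against 3.84%. The count of 13 fell to 7 without estrus replicate 3, to 5 without estrus replicate 4, to 7 without estrus replicate 5, and to 7 without diestrus replicate 4 or 5. For estrus against proestrus the count of 13 fell to 6 without proestrus replicate 1 or 2 or estrus replicate 3, and to 8 without estrus replicate 4 or 5. It was 10 without proestrus replicate 3.

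**Figure D4:**
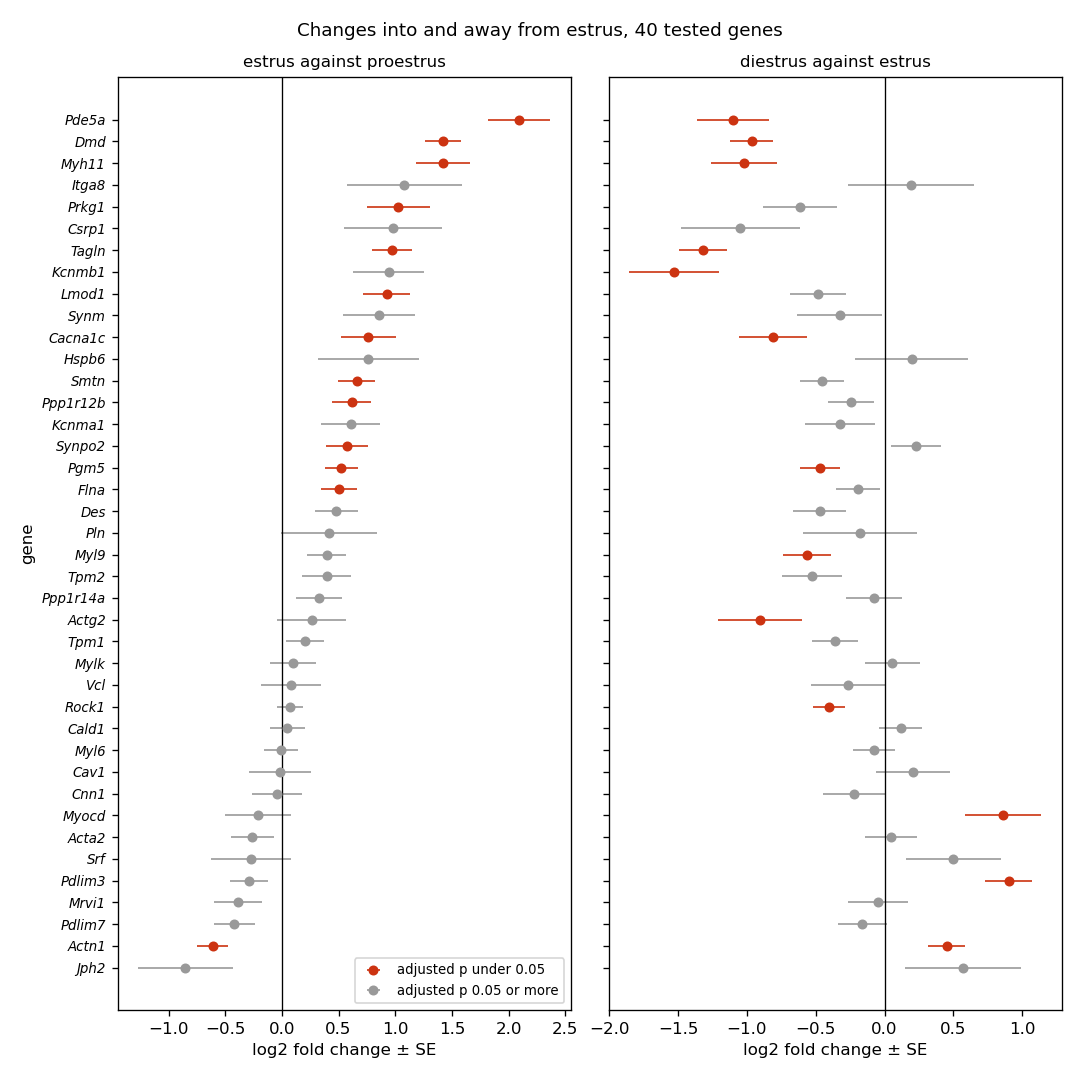
Points are log2 fold changes of the 40 tested genes with their SE (bars), in estrus against proestrus (left) and diestrus against estrus (right), both ordered by the left panel. Red marks an adjusted p under 0.05: 13 genes on each side, with Pde5a at 2.10 the largest on the left and Kcnmb1 at -1.53 the lowest on the right. Both panels share the estrus libraries.

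Metestrus against estrus called 6 of the 40 genes, all lower: Myh11, Actg2, Myl9, Tpm2, Tagln and Dmd. The background was 7.56%, with 4.73% lower. All but Dmd are filament genes, and the median over the 12 filament genes was -0.39 with 11 below 0. The call of Dmd held in all 12 fits. The count fell to 2 without estrus replicate 3, 4 or 5. Without metestrus replicate 7 it was again 6, but 3 of these, Actn1, Pdlim3 and Mrvi1, were higher in metestrus. Fitted on these 2 stages alone, only Dmd was called.

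Diestrus against metestrus called none of the 40 in edgeR or in the DESeq2 test, against 0.224% of all genes in edgeR. At an unadjusted p under 0.05 edgeR gave 8, that is Tagln, Vcl, Pdlim3, Rock1, Prkg1, Mrvi1, Pde5a and Hspb6. The share of all genes at that unadjusted cut-off is not given, and the 0.224% does not serve as its background. Without metestrus replicate 6, 1 gene was called, Pde5a, with a log2 change of -1.08 in diestrus (adjusted p = 0.0178). Proestrus against diestrus called 3 genes, Synpo2, Pdlim3 and Pde5a, all lower in proestrus, against 8.53% of all genes and 3.91% lower. That count was 0 without proestrus replicate 1 or 2, and 1 without diestrus replicate 3 or 5. Metestrus against proestrus called 3, Prkg1 and Pde5a higher and Pdlim7 lower, against 4.31%. Its count was 7 without metestrus replicate 6. It fell to 1 without any 1 of the 3 proestrus libraries, estrus replicate 3 or 5, metestrus replicate 7, or diestrus replicate 3 or 5.

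Other genes of the same systems were taken from lists chosen by role, also with earlier results of these data known. Of 13 cytoskeletal genes that non-muscle cells use in place of the muscle forms, 4 fell and none rose in estrus against proestrus, where 7.46% of all genes fell and 9.67% rose. Tpm3, a cytoplasmic tropomyosin, fell by 0.45 ± 0.14 (log2, adjusted p = 0.0365), from 411, 473 and 448 CPM in proestrus to 301, 352 and 322 in estrus. Tpm4, another, fell by 0.74 ± 0.18 (adjusted p = 0.0155), from 246, 223 and 218 CPM to 111, 158 and 142. Cnn3, the calponin of non-muscle cells, did not pass (0.43 ± 0.28, adjusted p = 0.325). The summed level of the list was 7826 to 8266 CPM in proestrus and 7467 to 8482 in estrus.

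Of 23 tested genes of calcium and membrane excitability, 3 rose and 1 fell in estrus against proestrus, a share near the 17.1% of all genes called there. Ano1, a calcium-activated chloride channel, rose into estrus by 0.70 ± 0.21 (log2, adjusted p = 0.0349) and was higher still in diestrus, at 287, 297 and 346 CPM against 107, 131 and 122 in estrus. Itpr3, a receptor that releases calcium from stores, rose by 0.96 ± 0.25 (adjusted p = 0.0194) to 24.7, 33.2 and 34.8 CPM and fell in diestrus to 6.98, 5.93 and 5.66. Cacna1g, a T-type calcium channel, fell by 1.57 ± 0.38 (adjusted p = 0.0141) from 18.3, 14 and 21.3 to 7.42, 4.58 and 5.95 CPM.

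Of 22 tested cofactors of serum response factor and other muscle-related transcription factors, 4 rose and 2 fell in estrus against proestrus, beside 9.67% of all genes that rose and 7.46% that fell. Klf4, a repressor of muscle genes that is also an epithelial factor, fell by 0.96 ± 0.24 (log2, adjusted p = 0.015), from 488, 512 and 325 to 208, 184 and 289 CPM. Foxo3, a forkhead factor, rose by 0.94 ± 0.20 (adjusted p = 0.00653) to 51.3, 60.1 and 50.8 CPM, and Fhl1, a LIM protein of muscle, by 1.18 ± 0.21 (adjusted p = 0.00269) to 121, 174 and 136 CPM. Of 38 tested genes of adhesion, costameres and caveolae, 4 rose and none fell, a share that rose near the 9.67% of all genes. Lpp, a smooth muscle LIM protein of adhesions, rose by 0.68 ± 0.17 (adjusted p = 0.0162) to 723, 561 and 564 CPM and fell in diestrus to 395, 267 and 327. Pdlim5 and Flnc passed the test over the 4 stages (adjusted p = 0.037 and 0.0422) but not in estrus against proestrus.

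Markers of other cells moved with the stages as well, and their part in these results was not tested. Their counts in estrus against proestrus stand beside 9.67% of all genes higher and 7.46% lower. Markers of pericytes and vascular mural cells, which also express smooth muscle genes, were higher in estrus than in proestrus for 4 of 9 tested. Their summed level was 282.5 to 311.6 CPM in proestrus, 400.9 to 437.6 in estrus, 422.7 to 472.2 in metestrus and 469.1 to 529.4 in diestrus. Of this list, Rgs5 rose in diestrus against estrus (0.65 ± 0.16, adjusted p = 0.0107), Mcam in estrus against proestrus (1.26 ± 0.26, adjusted p = 0.00541), and Kcnj8 likewise (0.79 ± 0.25, adjusted p = 0.042). None of 10 endothelial markers was called by edgeR in any comparison. At an unadjusted p under 0.05 edgeR gave 1 (Cldn5) in estrus against proestrus and 6 in metestrus against proestrus. In the latter all 10 lay above 0, with a median log2 change of 0.82. Of all genes tested, 6218 of 12052 lay above 0 there, with a median of 0.02. The share of all genes at the unadjusted cut-off is not given for either comparison. The endothelial markers summed to 1524 to 1661 CPM in proestrus, 1606 to 2136 in estrus, 1622 to 1982 in metestrus and 1419 to 1569 in diestrus.

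Leukocyte markers rose in 7 of 10 tested genes, from a sum of 376.6 to 441 CPM in proestrus to 785.6 to 1231 in estrus. Epithelial markers differed over the 4 stages in all 13 genes, against 23.2% of all genes, with 1958 to 2763 CPM in proestrus and estrus and 730.6 to 1403 in metestrus and diestrus. Stromal fibroblast markers changed in both directions in estrus against proestrus, 3 higher and 4 lower of 13, with sums of 13837 to 14146 CPM in proestrus and 10844 to 11357 in estrus. The stromal sums spread more widely later, over 7539.2 to 15532.5 CPM in metestrus and 9873.4 to 13410.2 in diestrus. Immediate early genes, which respond to handling and injury as well as to hormones, rose in 3 of 9, from a sum of 231.6 to 379.1 CPM to 436.1 to 653.8. Skeletal muscle, adipocyte and mesothelial markers were low, at 39.3 to 224.7, 1 to 21.3 and 59.5 to 116 CPM in sum, and the skeletal myosin gene Myh4 was at 0 in every library. Of 4 tested skeletal muscle genes 3 passed the test over the 4 stages, against 23.2% of all genes. Only 1, Ckm, was called in estrus against proestrus, higher (adjusted p = 0.0251), from at most 4.85 to at most 15.6 CPM. Summed, the skeletal muscle list lay at 69 to 106.6 CPM in proestrus and 72.1 to 141 in estrus. It lay at 39.3 to 118 CPM in metestrus and, highest, at 144.6 to 224.7 in diestrus. None of the marker lists was at 0 as a whole, and no library lacked epithelium, stroma, endothelium or muscle.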

How the data were processed

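The authors deposited 1 table per library with estimated counts and TPM for 119414 transcripts, per the file headers. The submitters' processing notes name FastQC, kallisto and DESeq2. The genome build, transcript set, options and use of strand were not given in the sources used here. The deposited TPM values were the authors' own scaling and entered no test. Per the labels' protocols, polyadenylated RNA was read by 3′ TagSeq, which counts the 3′ end of each transcript, and no molecular identifiers were described, so that limits from counts cover counting error only.

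Transcript names, without version, were matched to GENCODE M21 (GRCm38): 116640 matched, and the 2774 others, 0.619% to 0.774% of a library's counts, were left out. The authors' estimated counts were summed per gene and rounded to whole numbers. Genes were filtered with filterByExpr by stage in edgeR 4.0.16 (R 4.3.3), scaled with TMM factors (0.908 to 1.05) and fitted with a quasi-likelihood model on all 12 libraries, 1 coefficient per stage, with a biological coefficient of variation of 20.6%. The stages were compared jointly by an F test and in 6 two-sided pairs, each adjusted by Benjamini-Hochberg over 12052 genes, with adjusted p under 0.05 as the threshold. CPM values are scaled by TMM, and the SE of a log2 fold change is its size divided by the root of F. P-values measure the spread between uteri of one stage, and the labels do not give litter, day or batch. The scripts were tested on simulated data. Alternatives were DESeq2 size factors, library totals, no filter, DESeq2 1.42.0, 2 stages alone, a replicate block, and leaving out each library.

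The 42 members, their roles, the other lists and the pairs in ratios were chosen with earlier results of these data known. All members are accounted for, those called in any test by their value in every library, and of each other list at most the 3 genes with the smallest F test p. Shared 3′ ends are the share of 31-base words of the last 500 bases that occur in another gene on either strand. The result of 1 further gene list is not reported here.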

Additional observations from a re-analysis of the deposited data

How the results depend on the processing

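No fold change that passed the main test reversed: of 203 values under other settings 175 stayed past the threshold and 28 did not, and of 456 with 1 library left out 311 stayed past it and 145 did not. Counts of genes called over the 4 stages lay between 7 and 19 with 1 library left out. They lay between 6 and 15 in estrus against proestrus, 2 and 6 in metestrus against estrus, 0 and 1 in diestrus against metestrus, 0 and 4 in proestrus against diestrus, 1 and 7 in metestrus against proestrus, and 5 and 14 in diestrus against estrus. Metestrus against proestrus, with 3 genes, gave 1 with library totals, 7 with no filter on low counts, 5 in the DESeq2 test and 0 with these 2 stages alone. With 2 stages alone, metestrus against estrus gave 1 in place of 6 and proestrus against diestrus 5 in place of 3. The cause of these shifts was not tested. Estrus and diestrus shared replicate numbers 3, 4 and 5. Number 3 also occurred in proestrus and number 5 in metestrus, and those libraries entered neither the correlations that follow nor the block. Across genes, deviations of libraries of the same number had correlations of -0.043, 0.013 and -0.017. Those of different numbers had correlations of -0.03 to 0.044. These values rest on 3 libraries per stage, and whether libraries of the same number shared a day or batch was not tested. With the replicate block, 14 genes were called in diestrus against estrus, against 15 in the same 2 stages without it and 13 in the fit on all stages. The block ended the call of Rock1 (adjusted p = 0.0604) and of no other gene called in the fit on all stages. Counting limits matter for Itga8, Csrp1, Pln, Jph2, Hspb6 and Srf, which lie within a few times the floor of 3 counts in some libraries.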
